A study of Drosophila melanogaster with 144 samples.

Results

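Glutathione S-transferases (GSTs) of the cytosolic classes are described here in heads of adult Drosophila melanogaster. The genes are those whose FlyBase symbol begins with GstD, GstE, GstO, GstS, GstT or GstZ and a digit. The rule uses symbols only, and the family was picked with earlier results of these data known. They are 35 of the 17381 genes in the count table: 11 Delta, 14 Epsilon, 3 Omega, 1 Sigma, 4 Theta and 2 Zeta genes. The filter on low counts kept 33 of them for testing, and GstD4 and GstD7, with 791 and 166 counts over all libraries, were left out of the tests. GstD4 averaged 0.296 CPM in DGRP_892 and 0.261 CPM in Canton-S B, and GstD7, at 0 in 67 libraries, 0.0678 CPM in DGRP_892 and 0.0458 CPM in Canton-S B (counts per 1e6 gene counts after TMM scaling).

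GSTs join the tripeptide glutathione to reactive compounds, among them foreign chemicals and products of lipid peroxidation, and so make them easier to remove. The Delta and Epsilon classes expanded in insects, lie largely in tandem arrays and are best known from the metabolism of insecticides. Omega enzymes carry out thiol transfer and redox reactions, Sigma GST is tied to products of lipid peroxidation, and Zeta enzymes take part in the breakdown of tyrosine. In flies, many GST genes respond to oxidative stress through the transcription factor cnc, the homologue of vertebrate Nrf2, which Keap1 holds in check.

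The study compared DGRP_892, a long-period inbred stock from the Drosophila Genetic Reference Panel (DGRP), with Canton-S B, whose circadian period is 24 h and whose cultures carried the w1118 allele of the eye colour gene white. Adult virgin flies of both sexes were reared at 25 °C, entrained for 3 days to 12 h of light and 12 h of darkness, then held without light for 3 days, and frozen every 2 h at 12 circadian times (CT), CT02 to CT24. Each library held RNA of 150 heads, with 3 libraries for each line, sex and time, which makes 144 libraries in 48 groups and 72 libraries per line. A pair of incubators ran light cycles in antiphase, and which of them gave which times is not stated. Each genotype is a single line, so a difference between them belongs to these 2 stocks, and the effect of w1118 cannot be told apart from that of the line. Exact ages were not stated.

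Libraries held 11.7 M to 37.3 M gene counts (M, units of 1e6; median 15.2 M). The 48 libraries in library runs 1 and 4 (runs are consecutive sets of 24 library numbers in the labels) held 25.5 M or more, and the other 96 held 18.01 M or fewer. Both sets included both lines, both sexes and all 12 times. Levels are given as counts per 1e6 gene counts (CPM) after TMM scaling, which adjusts each library for its composition. Markers of the head (photoreceptor, neuron and glia genes) summed to 64555 to 100700 CPM in DGRP_892 libraries and 49668 to 79314 CPM in Canton-S B libraries. Most of these sums was the photoreceptor gene ninaE, with 70888 CPM in DGRP_892 and 50053 CPM in Canton-S B on average. Of the 10 head markers ninaE was the 1 called higher in DGRP_892, and 4 were lower (30.9% and 36.4% of all genes). A pair of libraries stood apart by gut and testis marker transcripts. DGRP_892 male CT22 replicate 2 and Canton-S B male CT22 replicate 1 held 115.3 and 182.7 CPM of testis and accessory gland markers, against at most 4.32 CPM in any other library, and 434 and 325 CPM of gut markers, against at most 158 CPM elsewhere. Without them, 25 GST genes were called for line (67.9% of all genes), 17 for sex (65.4%) and 6 for line by sex (14.4%). For rhythms the counts were 1 in DGRP_892 (0.194% of all genes) and 3 in Canton-S B (5.91%). For line by time and sex by time they were 0 (0.157% and 0.0461%).

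The summed TMM-scaled level of the family was slightly higher in DGRP_892, and its make-up by class differed. All 35 genes together summed to 2207 ± 118.6 CPM in DGRP_892 and 1951 ± 127.6 CPM in Canton-S B (SD, n = 72 each). These sums depend on the TMM scaling and are not shares of head RNA. The mean TMM factor was 0.895 in DGRP_892 females and 1.03 in DGRP_892 males. In Canton-S B it was 1.002 in females and 1.09 in males. Epsilon genes made up 61.5% ± 1.56 of the family in DGRP_892 and 53.8% ± 2.66 in Canton-S B. Delta genes made up 13.1% ± 1.40 in DGRP_892 and 20.1% ± 2.32 in Canton-S B. Within that class GstD1 alone held 6.98% ± 1.09 of the family in DGRP_892 and 15.6% ± 2.23 in Canton-S B. The lower Delta share is not a fall of the whole class, as 5 of its 9 tested genes were higher in DGRP_892. Omega genes summed to 161 ± 25.9 CPM in DGRP_892 and 147 ± 25.7 CPM in Canton-S B. Theta genes summed to 159.5 ± 10.6 CPM in DGRP_892 and 154 ± 13.8 CPM in Canton-S B, and Zeta genes to 88.8 ± 14.5 CPM in DGRP_892 and 86.6 ± 18.9 CPM in Canton-S B, each within the spread. A single Epsilon gene, GstE12, held 37.1% ± 4.61 of the family in DGRP_892 and 36.5% ± 4.19 in Canton-S B. All these sums and shares are of CPM not divided by exon length, so longer genes weigh more in them.

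Between genes, levels can be compared only per length, here as CPM per kilobase of exon (FPKM). Over all 144 libraries GstE12 came first with 547 ± 82.2 FPKM (SD) and GstD1 second with 272 ± 100.2 FPKM. GstE9 followed with 156 ± 74.2 FPKM. GstE6 with 85.9 ± 24.2 FPKM and GstE1 with 84.6 ± 49.8 FPKM came next. Their means were close to those of GstE3, GstD9 and GstT4, which lay between 81.8 and 83.2 FPKM. All these SDs include the difference between the lines. The order depended on the line. GstE9 ranked 2 of 35 in DGRP_892 with 212 ± 59.2 FPKM, ahead of GstD1 with 183 ± 31.2 FPKM, though within their spread. For Canton-S B, GstD1 came second with 361 ± 56.6 FPKM, ahead of GstE9 with 100 ± 34.8 FPKM. GstE1 ranked 4 in DGRP_892 with 132.9 ± 15.1 FPKM, against rank 11 for Canton-S B with 36.3 ± 6.83 FPKM. It thus lay above GstT4 in DGRP_892 (82.4 ± 9.45 FPKM) and below it in Canton-S B (81.2 ± 12.4 FPKM). GstE6 had 97.3 ± 24.95 FPKM in DGRP_892 and 74.4 ± 16.9 FPKM in Canton-S B. Among lower genes, GstE5 ranked 19 in DGRP_892 against 27 for Canton-S B, and GstE13 ranked 26 against 18. From GstE12 to GstD7, the lowest, the means spanned 7281-fold.

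**Figure D1:**
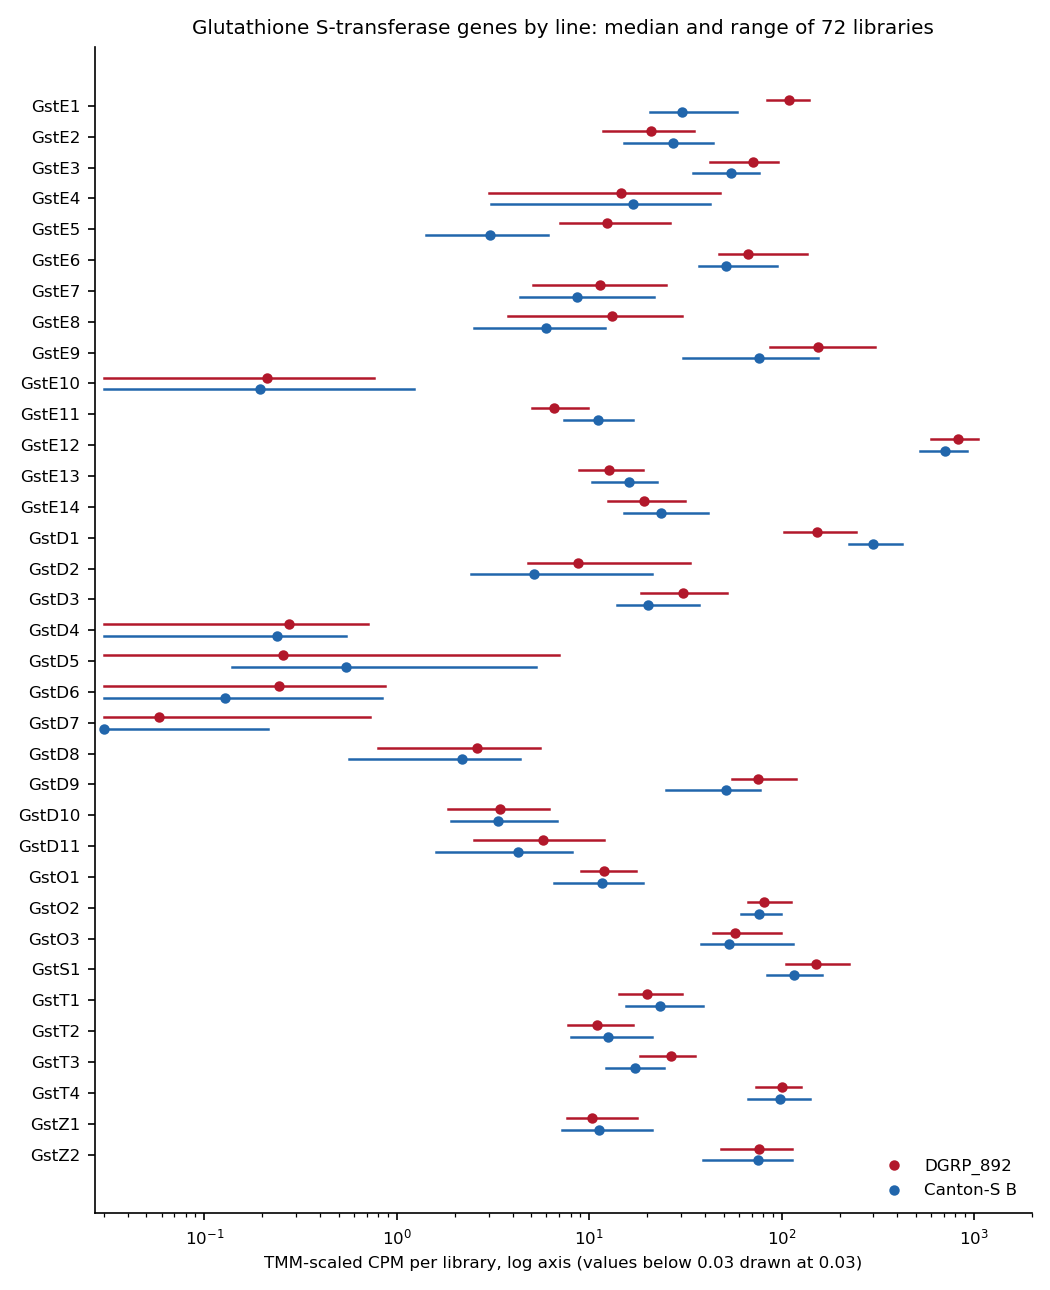
TMM-scaled level (CPM, log axis) of each of the 35 GST genes, by class, in the 72 DGRP_892 libraries and the 72 Canton-S B libraries. Points are medians and lines run from the lowest to the highest library. GstE1 and GstE5 are the genes whose lines do not overlap between the genotypes, and GstE12 has the highest level in both. Values under the axis floor are drawn at the floor.

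Most tested GST genes differed between the lines, and in both directions. With edgeR's quasi-likelihood test over 10894 genes and Benjamini-Hochberg adjustment (threshold 0.05), 25 of 33 GST genes were past the threshold, 17 higher and 8 lower in DGRP_892. Over all genes tested, 67.3% were past it, 30.9% higher and 36.4% lower. The median log2 difference (DGRP_892 minus Canton-S B) was 0.14 over the GST genes and -0.02 over all genes, and the median size without regard to sign was 0.35 and 0.15. At least 2-fold differences were found for 5 GST genes (background 7.64%): GstE5, GstE1, GstE8 and GstE9, all higher in DGRP_892 (background 4.77%), and GstD5, lower (background 2.86%). In bulk heads, a change in the number of cells that express a gene cannot be told apart from a change of RNA per cell. Within library runs 1 and 4, 23 GST genes were called for line (43.9% of all genes), and within the other runs 24 (55.7% of all genes). Within males 24 GST genes were called, 16 higher and 8 lower in DGRP_892 (background 55.4%, 26.1% higher and 29.3% lower), and within females also 24, 16 higher and 8 lower (background 60.2%, 27.7% higher and 32.5% lower).

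The largest single differences were those of Epsilon genes. As a class, the median log2 size without regard to sign was 0.36 for Epsilon and 0.65 for Delta genes. Of the 14 Epsilon genes, 8 rose and 4 fell in DGRP_892, and GstE4 and GstE10 did not pass. GstE5 had 7.07 CPM in the lowest, 12.3 in the median and 26.3 in the highest DGRP_892 library, against 1.42, 3.05 and 6.11 CPM in Canton-S B. GstE1 ran from 83.7 over a median of 108.9 to 139.2 CPM in DGRP_892, against 20.7, 30.2 and 58.6 CPM in Canton-S B. For both genes each of the 72 DGRP_892 libraries lay above every Canton-S B library, a separation that 1.58% of all genes tested showed (1.13% higher and 0.45% lower in DGRP_892). The fitted log2 difference was 1.97 ± 0.07 for GstE5 (SE, 3.93-fold, adjusted p = 4.09e-48) and 1.88 ± 0.03 for GstE1 (3.68-fold, adjusted p = 7.78e-76).

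GstE8 and GstE9, neighbours at the end of the Epsilon array, were higher by about the same factor. GstE8 had a lowest, median and highest level of 3.76, 13.2 and 30.2 CPM in DGRP_892 and of 2.51, 5.94 and 12.1 CPM in Canton-S B. GstE9 had 87.5, 155 and 305 CPM in DGRP_892 and 30.7, 76.7 and 155 CPM in Canton-S B. The lines overlapped, with 42 and 36 of the 72 DGRP_892 libraries above every Canton-S B library. The log2 differences were 1.15 ± 0.07 for GstE8 (2.22-fold, adjusted p = 2.73e-30) and 1.10 ± 0.06 for GstE9 (2.15-fold, adjusted p = 9.40e-33). GstE9 overlaps imd on the opposite strand, and its reads are uncertain to that extent, because whether counting used strand is not given.

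Smaller rises were those of GstE6 (log2 0.38 ± 0.05), GstE7 (0.37 ± 0.06), GstE3 (0.36 ± 0.03) and GstE12 (0.19 ± 0.03). GstE12, the most abundant member, averaged 817 ± 102.3 CPM in DGRP_892 and 714 ± 103.9 CPM in Canton-S B, and its libraries overlapped widely. Its call was lost with ERCC spike-in scaling (log2 0.16, adjusted p = 0.305). The Epsilon genes that fell were GstE11 (log2 -0.76 ± 0.04), GstE2 (-0.35 ± 0.04), GstE14 (-0.33 ± 0.05) and GstE13 (-0.32 ± 0.04). GstE11 averaged 6.71 ± 1.07 CPM in DGRP_892 and 11.4 ± 1.90 CPM in Canton-S B, and 56 DGRP_892 libraries lay below every Canton-S B library. GstE14 is the gene noppera-bo, needed for the synthesis of the moulting hormone ecdysone, and it averaged 19.9 ± 4.84 CPM in DGRP_892 and 24.8 ± 6.00 CPM in Canton-S B. GstE4 averaged 16.97 ± 9.98 CPM in DGRP_892 and 17.6 ± 9.69 CPM in Canton-S B, a log2 difference of -0.05 ± 0.15 (adjusted p = 0.813). GstE10 had 0.229 CPM in DGRP_892 and 0.221 CPM in Canton-S B on average, with 8 DGRP_892 and 5 Canton-S B libraries at 0.

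In the Delta class, 5 of 9 tested genes rose and 2 fell in DGRP_892. GstD1, the main head Delta gene and a common reporter of oxidative stress in flies, fell. It had 102.8, 152 and 243 CPM in the lowest, median and highest DGRP_892 library, against 224, 299.8 and 422 CPM in Canton-S B. All but 1 of the 72 DGRP_892 libraries lay below every Canton-S B library. The log2 difference was -0.98 ± 0.04 (1.97-fold lower, adjusted p = 9.60e-45), just short of a 2-fold change. GstD1 alone made up 6.98% ± 1.09 of the family in DGRP_892 and 15.6% ± 2.23 in Canton-S B. GstD5 fell too (log2 -1.001 ± 0.19, adjusted p = 1.18e-06), but at a very low level: its lowest, median and highest libraries had 0, 0.257 and 6.93 CPM in DGRP_892, with 6 libraries at 0, against 0.140, 0.542 and 5.28 CPM in Canton-S B. On the authors' batch-corrected values its log2 difference was -0.29, on a scale that understates changes of low genes. GstD5 was also short of a 2-fold fall with RLE scaling, without a filter, with library run as a term (log2 -0.94) and without replicate 1. The same held without the pair of libraries with gut and testis transcripts. Its libraries overlapped, and 19 DGRP_892 libraries lay below every Canton-S B library.

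The Delta genes that rose were GstD6 (log2 0.82 ± 0.17), GstD2 (0.80 ± 0.07), GstD9 (0.65 ± 0.04), GstD3 (0.65 ± 0.05) and GstD11 (0.43 ± 0.09). GstD9 averaged 79.5 ± 15.3 CPM in DGRP_892 and 51.2 ± 11.8 CPM in Canton-S B, and GstD3 31.9 ± 6.53 CPM in DGRP_892 and 20.4 ± 4.12 CPM in Canton-S B. GstD2 averaged 9.81 ± 4.07 CPM in DGRP_892 and 5.61 ± 2.41 CPM in Canton-S B, and GstD6 only 0.256 CPM in DGRP_892 and 0.150 CPM in Canton-S B. GstD6 had only 3 libraries past the cutoff of the low-count filter, 2 of DGRP_892 and 1 of Canton-S B, and its call was lost within library runs 1 and 4 (log2 0.49, adjusted p = 0.253). GstD8, at 2.63 ± 1.13 CPM in DGRP_892 and 2.23 ± 0.922 CPM in Canton-S B, missed the threshold (log2 0.23 ± 0.11, adjusted p = 0.0624) and passed it with the replicate number as a block (log2 0.25, adjusted p = 0.0216) and without replicate 3 (0.41, adjusted p = 0.0169). In the authors' batch-corrected values GstD8 passed too (log2 0.18, adjusted p = 0.0339). GstD10 averaged 3.54 CPM in both lines (log2 0.01 ± 0.06, adjusted p = 0.958).

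In the other classes the log2 differences were smaller than those of GstE1, GstE5 and GstD1. Among Omega genes, GstO2 (log2 0.13 ± 0.02) and GstO3 (0.14 ± 0.05, adjusted p = 0.0124) were higher in DGRP_892, and GstO1 was not called (0.07 ± 0.04, adjusted p = 0.0789). Both Omega calls were lost with ERCC scaling (adjusted p = 0.447 for GstO2 and 0.331 for GstO3), and that of GstO3 was lost within each set of library runs (adjusted p = 0.121 and 0.360) and without replicate 2 (log2 0.06, adjusted p = 0.469). GstO1 passed without replicate 1 or replicate 3 (log2 0.10 and 0.13, adjusted p = 0.0249 and 0.0210). It also passed with library run as a term and in the authors' batch-corrected values (log2 0.06 each, adjusted p = 0.0453 and 0.0436). GstS1, the Sigma enzyme, rose, with 105.3, 150.04 and 225 CPM in the lowest, median and highest DGRP_892 library against 84.4, 115.9 and 162.0 CPM in Canton-S B (log2 0.35 ± 0.04, adjusted p = 6.76e-15). Of the Theta genes, GstT3 rose (0.62 ± 0.03), with 18.5, 26.5 and 35.4 CPM in the lowest, median and highest DGRP_892 library against 12.3, 17.2 and 24.6 CPM in Canton-S B. GstT1 (-0.24 ± 0.04) and GstT2 (-0.21 ± 0.04) fell. GstT1 averaged 20.9 ± 3.83 CPM in DGRP_892 and 24.7 ± 5.04 CPM in Canton-S B. GstT4 was not called (0.02 ± 0.03, adjusted p = 0.494). Neither Zeta gene passed, with log2 differences of -0.08 ± 0.05 for GstZ1 and 0.07 ± 0.04 for GstZ2. However, GstZ1 did without replicate 2 (log2 -0.15, adjusted p = 0.0367) and with library run as a term (-0.08, adjusted p = 0.0340).

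Several cell type markers moved with line as well, where 30.9% of all genes tested were higher and 36.4% lower in DGRP_892. Fat body markers were higher in DGRP_892 for 10 of 14 tested genes and lower for 0, with sums of 72282 to 175040 CPM in DGRP_892 females against 31527 to 126730 CPM in Canton-S B females, and of 9328 to 22128 CPM in DGRP_892 males against 3952 to 14321 CPM in Canton-S B males. Much of the female sums came from Yp1, Yp2 and Yp3, which were not called between the lines (log2 -0.27, -0.42 and 0.07, adjusted p = 0.275, 0.118 and 0.767). Haemocyte markers were higher for 1 and lower for 8 of 10, flight muscle markers higher for 1 and lower for 10 of 11, and glia markers higher for 1 and lower for 6 of 10. For ovary the counts were 3 higher and 0 lower of 3, for gut 2 and 0 of 8, for testis and accessory gland 1 and 0 of 3, for Malpighian tubule 0 and 2 of 2, and for the head list 1 and 4 of 10. Many defining markers of these abdominal tissues stayed under the filter: 9 of 12 ovary, 9 of 12 testis and accessory gland and 4 of 12 gut genes. The part of these shifts in the GST differences was not tested.

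The GST genes lie at 12 places in the genome (FlyBase release 6), most of them in 2 tandem arrays. The Epsilon array holds 10 genes on chromosome 2R between 18396638 and 18409835, and the Delta array 11 genes on chromosome 3R between 12364776 and 12385624. Of 19 adjacent pairs of tested genes, 5 had one gene higher and the other lower in DGRP_892, 7 moved the same way, and in 7 at least 1 gene did not pass. GstE1 (higher) ends 262 bp before GstE2 (lower), which ends 337 bp before GstE3 (higher). GstD9 (higher), GstD1 (lower) and GstD2 (higher) follow each other with gaps of 252 and 2702 bp. In contrast, the 5 genes from GstE5 to GstE9, all on the plus strand with gaps of 92 to 672 bp, were all higher in DGRP_892. GstE10, which overlaps GstE1 on the opposite strand, showed a log2 difference of -0.06 ± 0.15 beside the 1.88 of GstE1. GstE12, GstE13, GstO2 and GstT2 each overlap another gene on the opposite strand too (CG3894, CG18659, se and CG12926). Reads that fit more than 1 of these similar genes could have been split between them by the counting, so differences between close paralogues carry that uncertainty.

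**Figure D2:**
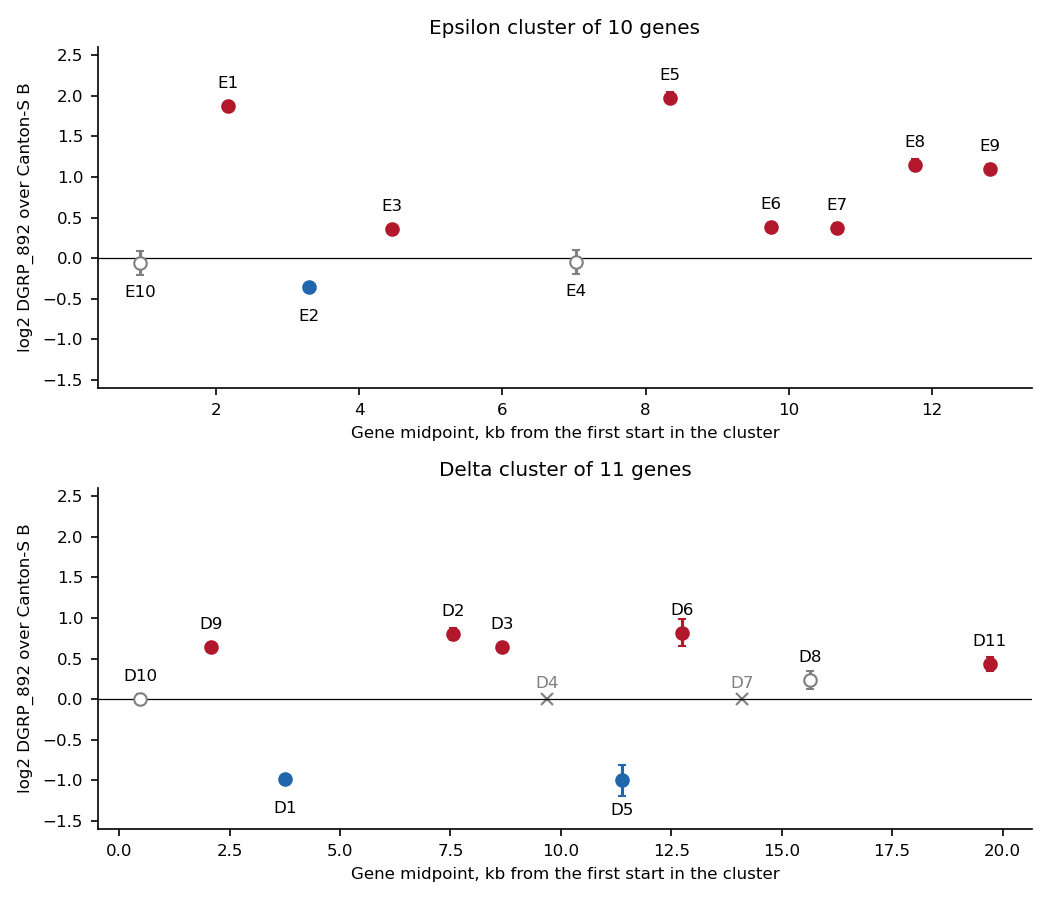
Log2 difference DGRP_892 minus Canton-S B of the genes of the Epsilon and the Delta array, in their order along the chromosome. Bars are standard errors, filled points passed an adjusted p of 0.05, open grey points did not, and crosses mark untested genes. In the Epsilon array GstE1 and GstE5 reach 1.88 and 1.97 with lower values between them, and in the Delta array GstD1 at -0.98 lies between GstD9 at 0.65 and GstD2 at 0.80.

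Most of the sex differences were found in the Epsilon class. Over both lines 17 of 33 GST genes differed between the sexes, 11 higher and 6 lower in males, where 65.6% of all genes tested did, 35.9% higher and 29.7% lower. No GST gene reached a 2-fold difference, against 2.74% of all genes (1.42% higher and 1.31% lower). Within DGRP_892, 13 GST genes were higher and 4 lower in males, 17 in all (background 56.9%, 31.4% higher and 25.5% lower), and within Canton-S B 9 were higher and 6 lower, 15 in all (background 54.6%, 28.8% higher and 25.8% lower). Of the 14 Epsilon genes, 9 were higher and 1 lower in males. The median log2 difference (male minus female) was 0.26 for Epsilon genes, 0.02 for all GST genes and 0.03 for all genes tested. Within library runs 1 and 4, 9 of 34 GST genes were called for sex, where 36.4% of all genes were, and within the other runs 16 of 33, where 59.8% were. GstE10 is among the 11 genes higher in males and the 9 of the Epsilon class, and among those higher in males within each line. It also enters the Epsilon median. However, GstE10 passed the low-count filter with the 3 libraries the filter asks for, all of them male, so none of its calls is read as a sex difference.

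GstE7 averaged 13.1 ± 4.32 CPM in males and 8.53 ± 2.73 CPM in females (SD, n = 72 each; log2 0.61 ± 0.06, adjusted p = 2.84e-15), with wide overlap. GstE8 averaged 12.0 ± 6.48 CPM in males and 8.49 ± 3.85 CPM in females (log2 0.44 ± 0.07), and GstE9 138.5 ± 58.8 CPM in males and 107.8 ± 54.2 CPM in females (0.42 ± 0.06). The spread of these means includes the line difference. GstZ2, a Zeta gene, averaged 86.8 ± 13.6 CPM in males and 65.7 ± 12.3 CPM in females (0.41 ± 0.04, adjusted p = 1.37e-17), and GstE3 71.6 ± 12.5 CPM in males and 54.002 ± 9.05 CPM in females (0.40 ± 0.03, adjusted p = 5.55e-25). GstZ2 and GstE3 were higher in males in all 24 pairs of line and time. GstE10, described without a test for that reason, averaged 0.279 ± 0.187 CPM in males and 0.171 ± 0.117 CPM in females. Its highest library, with 1.24 CPM, was Canton-S B male CT22 replicate 1, one of the pair with gut and testis transcripts.

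The other genes higher in males were GstE5 (0.34), GstD9 (0.33), GstE2 (0.28), GstE14 (0.24) and GstE6 (0.12). The call of GstE6 was lost without that pair of libraries (0.10, adjusted p = 0.0530), without replicate 1 and without replicate 2 (adjusted p = 0.207 and 0.0655). Lower in males were GstT3 (-0.17), GstD1 (-0.14), GstO2, GstT1 and GstZ1 (-0.13 each) and GstE13 (-0.08). These 6 depended on the scaling: with ERCC spike-ins the median of all genes shifted to 0.23, 18 GST genes were higher in males and 0 lower, and all 6 values turned positive. The calls of GstE13, GstT1 and GstZ1 were also lost without 1 of the replicates (adjusted p = 0.0997 to 0.151). Among the markers, haemocyte genes were lower in males for 10 of 10 tested, fat body genes higher for 6 and lower for 8 of 14, glia genes higher for 6 and lower for 0 of 10, flight muscle genes higher for 3 and lower for 7 of 11, and head genes higher for 9 and lower for 0 of 10. Gut was higher for 2 and lower for 0 of 8, Malpighian tubule 2 and 0 of 2, ovary 0 and 2 of 3, and testis and accessory gland 0 and 0 of 3. Of all genes tested, 35.9% were higher and 29.7% lower in males. The part of the marker shifts in the sex differences of the GST genes was not tested.

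**Figure D3:**
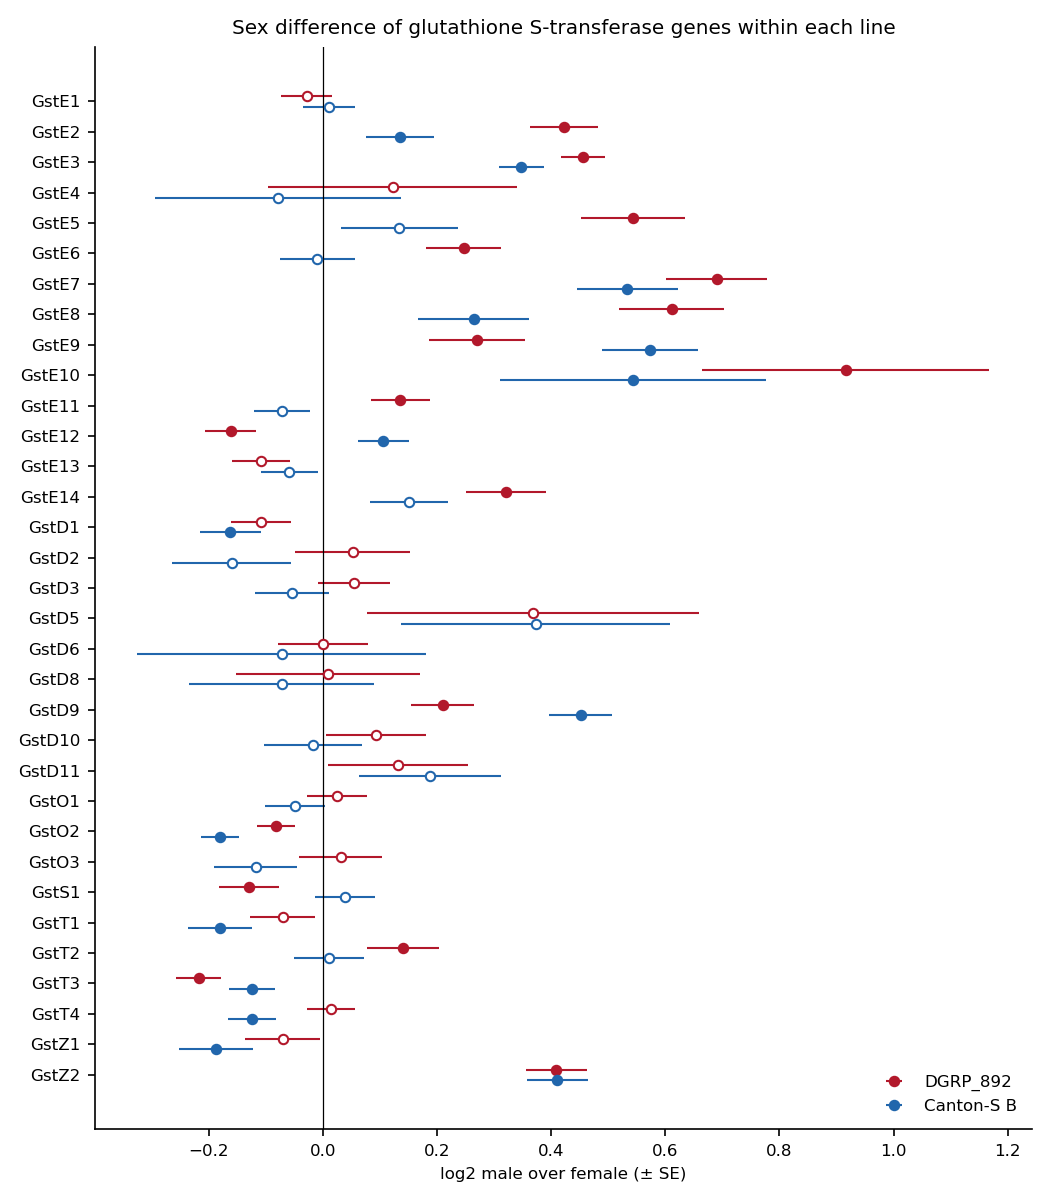
Log2 difference male minus female of each tested GST gene within DGRP_892 and within Canton-S B, with standard errors. Filled symbols passed an adjusted p of 0.05 within that line and open ones did not. GstE10 is drawn too, but its calls are not read as a sex difference. Most Epsilon genes and GstZ2 lie above 0 in both lines.

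The sex difference itself differed between the lines for 5 GST genes (line by sex, background 12.7%), with a positive value for 3 (background 6.24%) and a negative one for 2 (background 6.43%). GstE5 was higher in DGRP_892 by log2 2.18 ± 0.10 in males and 1.77 ± 0.10 in females, a difference of 0.41 (adjusted p = 0.0322). It averaged 16.1 ± 4.97 CPM in DGRP_892 males and 10.97 ± 3.28 CPM in DGRP_892 females (SD, n = 36 each), against 3.53 ± 1.196 and 3.26 ± 1.10 CPM in Canton-S B males and females. GstE2 was lower in DGRP_892 by more in females (log2 -0.50 ± 0.06) than in males (-0.21 ± 0.06), a difference of 0.29 (adjusted p = 0.0116). GstE12 rose in DGRP_892 females (0.33 ± 0.04), with 862 ± 86.7 CPM against 688 ± 92.7 CPM in Canton-S B females. In males it averaged 772 ± 97.6 CPM in DGRP_892 and 740.0 ± 109.2 CPM in Canton-S B (0.06 ± 0.04, adjusted p = 0.267), and the difference was -0.27 (adjusted p = 0.00104). GstD9 rose by 0.53 ± 0.06 in males and 0.77 ± 0.06 in females (difference -0.24, adjusted p = 0.0245). GstE11 fell by 0.66 in males and 0.87 in females on the log2 scale (difference 0.21, adjusted p = 0.0372). The count of calls depended on the processing: it was 0 with ERCC scaling, where 0.991% of all genes were called, 0 within library runs 1 and 4 (0.441%), 3 within the other runs (8.33%), and 4, 1 and 0 without replicate 1, 2 and 3 (10.7%, 6.47% and 5.42%).

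Over circadian time the summed level of the family varied less than those of its Omega and Zeta classes. Summed over all 35 genes, DGRP_892 was highest at CT24 with 2288 ± 121.4 CPM and lowest at CT22 with 2093 ± 95.97 CPM (SD, n = 6 libraries per time), a gap of 9.30%. Canton-S B was highest at CT18 with 1992 ± 57.9 CPM and lowest at CT02 with 1888 ± 111.2 CPM, a gap of 5.51%. Zeta genes summed to 96.2 ± 14.6 CPM at CT08 and 75.4 ± 15.8 CPM at CT22 in DGRP_892 (27.6%), and to 104.5 ± 12.4 CPM at CT10 and 66.05 ± 12.2 CPM at CT22 in Canton-S B (58.2%). Omega genes summed to 181 ± 33.1 CPM at CT12 and 138.8 ± 7.89 CPM at CT22 in DGRP_892 (30.6%), and to 172 ± 23.3 CPM at CT08 and 124.9 ± 8.69 CPM at CT06 in Canton-S B (37.5%). The gaps of the other classes lay between 8.33% and 25.2%. These gaps take the highest and lowest of 12 times and were not tested. With a 24-h cosine, 1 of 33 GST genes was rhythmic in DGRP_892 (background 0.477%) and 3 of 33 in Canton-S B (background 6.01%). The same 24-h curve was used in both lines although DGRP_892 has a longer period. At an unadjusted p under 0.05 there were 6 in DGRP_892 (background 11.6%) and 7 in Canton-S B (background 17.4%). By sex, the counts were 1 in DGRP_892 males (GstD5, background 2.29%), 0 in DGRP_892 females (background 0.119%), 0 in Canton-S B males (background 4.62%) and 1 in Canton-S B females (GstZ2, background 3.52%). With time as 12 levels, 1 gene changed in DGRP_892 (background 0.624%) and 6 in Canton-S B (background 6.61%). No GST gene passed for line by time (background 0.156%), where 2 genes, GstO1 and GstD10, were under an unadjusted p of 0.05 (background 4.97%) and DESeq2 also called 0. No GST gene passed for sex by time (background 0.413%), with 0 under an unadjusted p of 0.05 in edgeR (background 13.3%) and 1 in DESeq2, which called 0.

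In Canton-S B the rhythmic genes peaked in the subjective day. GstZ2 had an amplitude (log2, mean to peak) of 0.22 ± 0.04 with a peak at 9.42 h and a 1.36-fold peak over trough (adjusted p = 4.03e-05). It averaged 91.96 ± 13.4 CPM at CT10, its highest time, and 54.2 ± 12.4 CPM at CT22, its lowest (n = 6 each). In DGRP_892 the same gene had an amplitude of 0.11 with a peak at 8.15 h (adjusted p = 0.387), with 84.9 ± 16.1 CPM at CT04 and 66.9 ± 15.6 CPM at CT22. GstO1 had an amplitude of 0.15 ± 0.04 in Canton-S B with a peak at 7.81 h (adjusted p = 0.0183), and 15.0 ± 2.57 CPM at CT08 against 9.91 ± 1.92 CPM at CT20. GstD10 had an amplitude of 0.23 ± 0.06 with a peak at 7.31 h (adjusted p = 0.0305), and 4.84 ± 1.16 CPM at CT08 against 2.85 ± 0.775 CPM at CT22. In DGRP_892 both were highest at CT16 and lowest at CT22, with 13.7 ± 1.61 and 10.1 ± 0.641 CPM for GstO1 and 4.28 ± 0.931 and 2.90 ± 0.602 CPM for GstD10. Since no line by time test passed, the rhythms are not shown to differ between the lines. With ERCC scaling no GST gene was called in Canton-S B, where 0.340% of all genes were, and 1 was under an unadjusted p of 0.05. Within library runs 1 and 4, and within the other runs, 1 gene was called (0.487% and 2.597% of all genes). Without replicate 1 or replicate 3 the count was 1 each (1.81% and 2.75%), and the call of GstZ2 was lost without replicate 3 (adjusted p = 0.110).

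The rhythm of GstD5 in DGRP_892 rested on few libraries. Its amplitude was 1.00 ± 0.22 with a peak at 1.58 h (adjusted p = 0.0117). It averaged 1.96 ± 2.75 CPM at CT02 and 0.143 ± 0.175 CPM at CT12. The CT02 mean was set by male replicate 2 with 6.93 CPM (100 counts) and male replicate 1 with 3.47 CPM (93 counts). Without the library of male CT02 replicate 2 the amplitude was 0.73 (adjusted p = 0.114). The call was also lost without replicate 1, without replicate 2, within each set of library runs and in the authors' batch-corrected values (adjusted p = 0.246 to 0.572). In Canton-S B the highest GstD5 library, with 5.28 CPM (171 counts), was that of female CT04 replicate 1.

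**Figure D4:**
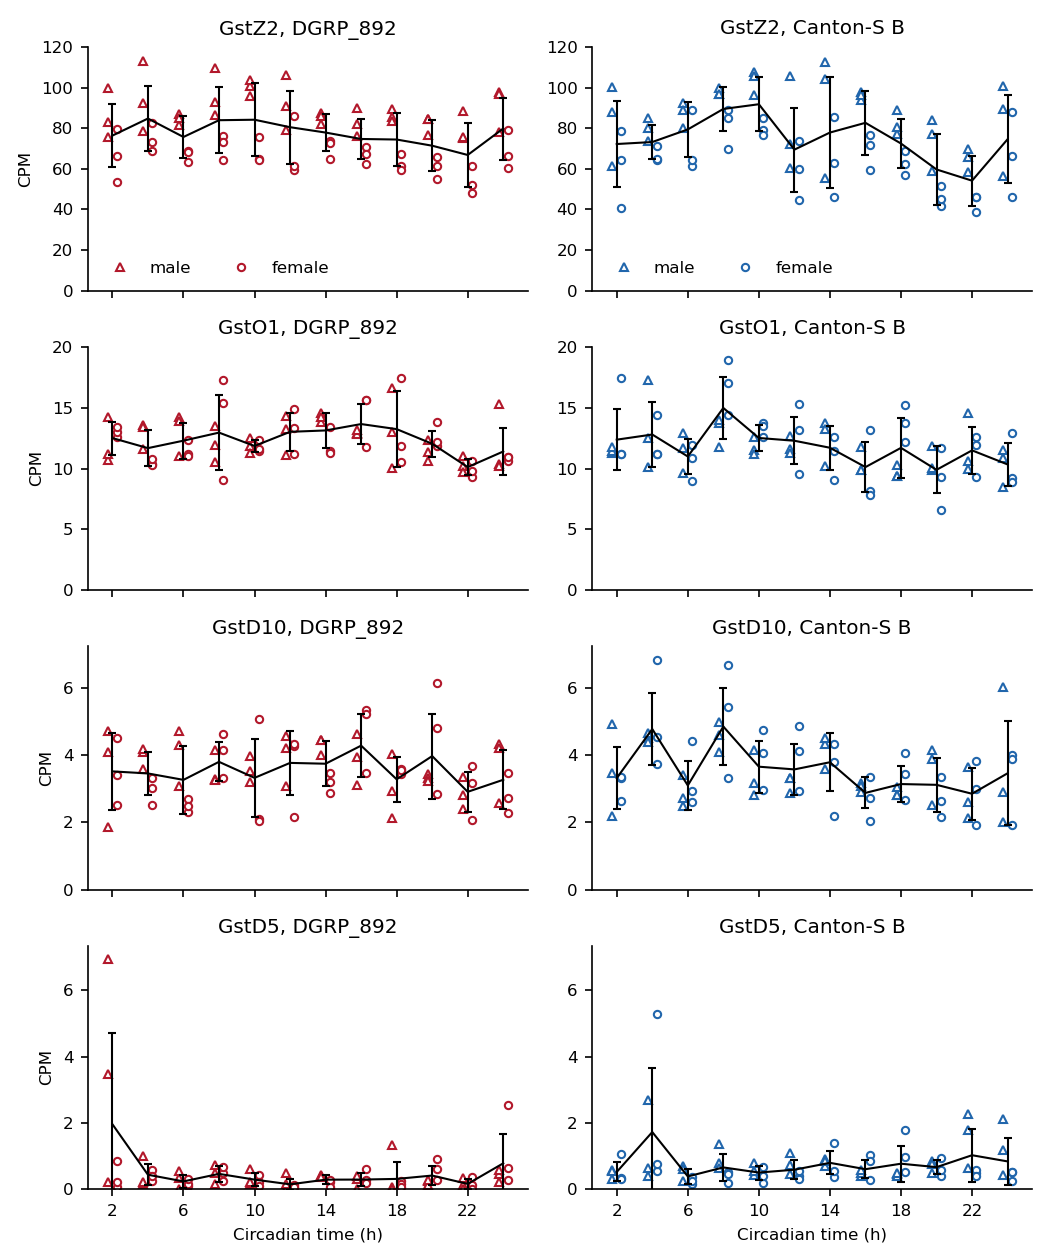
Levels (CPM) of the GST genes called rhythmic in either line, by circadian time, with 1 panel per line. Triangles are male and circles female libraries, and the black line joins the mean of the 6 libraries of each time with its SD, lower bars being cut at 0. GstZ2 falls to 54.2 CPM at CT22 in Canton-S B, and the GstD5 mean at CT02 in DGRP_892 is lifted by 2 male libraries.

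Levels of 5 GST genes varied with replicate number, GstE4, GstD8 and GstD11 the most. The labels state that the collection was run 3 times, and replicate number took 36.6% of the log2 variance within groups for GstE4, 30.9% for GstD8 and 39.1% for GstD11, against a median of 3.40% and a 90th percentile of 12.7% over all genes tested. It took 23.6% for GstE1 and 15.4% for GstD1, whose highest library was that of replicate 2 in 31 and 26 of 48 groups. For GstE4 the median level in DGRP_892 was 7.90 CPM in the 24 libraries of replicate 1, 15.8 in those of replicate 2 and 18.4 in those of replicate 3. In Canton-S B these medians were 9.98, 17.7 and 22.9 CPM. The replicate 1 library was the lowest of its group of 3 in 34 of 48 groups for GstE4, 33 for GstD8 and 34 for GstD11. GstE4, GstD8 and GstD11 also shared their highest library: GstD11 and GstE4 in 39 of 48 groups, GstD8 and GstD11 in 38, and GstD8 and GstE4 in 37. Over the other 592 pairs of GST genes the number ran from 3 to 37, with a median of 18. GstD8 and GstD11 lie in the Delta array on chromosome 3R and GstE4 in the Epsilon array on chromosome 2R.

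**Figure D5:**
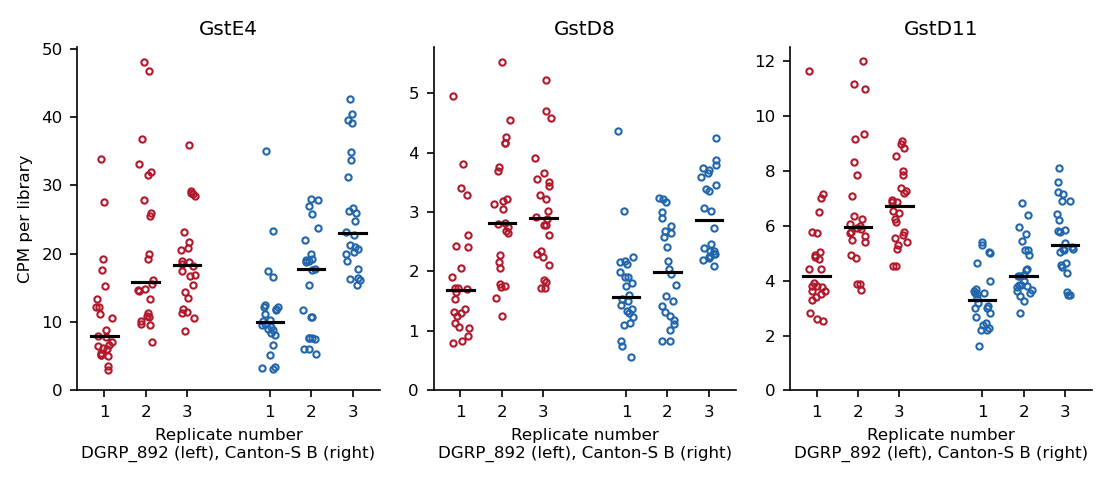
Levels (CPM) of GstE4, GstD8 and GstD11 by replicate number within each line, 24 libraries for each number and line. Points are libraries and bars are medians. In both lines the libraries of replicate 1 have the lowest median for each of the 3 genes.

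Other genes of glutathione metabolism were set beside the family from a list of 15, of which 14 were tested. Between the lines 5 were higher and 5 lower in DGRP_892 (background 30.9% and 36.4%). The regulators differed in direction. Over both sexes cnc was higher (log2 0.09 ± 0.03), with 247 ± 31.8 CPM in DGRP_892 and 231 ± 26.03 CPM in Canton-S B. It was called within females (0.14 ± 0.04, adjusted p = 6.30e-04) and not within males (0.04 ± 0.04, adjusted p = 0.347). Its inhibitor Keap1 was higher too (0.29 ± 0.02), whereas maf-S, the small Maf partner of cnc, was lower (-0.36 ± 0.04). Gclc, the catalytic subunit of the enzyme that starts glutathione synthesis, averaged 174 ± 11.4 CPM in DGRP_892 and 147 ± 12.1 CPM in Canton-S B (0.25 ± 0.01). Its modifier subunit Gclm was not called over both sexes (0.03 ± 0.03, adjusted p = 0.416), but its line difference had opposite signs in the sexes. Gclm was higher in DGRP_892 within females (0.17 ± 0.04, adjusted p = 1.39e-04) and lower within males (-0.12 ± 0.04, adjusted p = 0.0103). For line by sex the value was -0.29 ± 0.06 (adjusted p = 8.64e-05). In sulphur amino acid metabolism, which supplies cysteine, Cth was higher (0.23 ± 0.02) and Cbs lower (-0.44 ± 0.03).

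Mgstl, a microsomal GST of another protein family, rose to 178 ± 33.7 CPM in DGRP_892, against 126.45 ± 26.1 CPM in Canton-S B (0.49 ± 0.04). Ggt-1, which breaks down glutathione outside the cell, averaged 23.3 ± 4.34 CPM in DGRP_892 and 33.4 ± 8.47 CPM in Canton-S B (-0.50 ± 0.04). The Omega relative sepia (se), which makes a precursor of the red eye pigments and overlaps GstO2 on the opposite strand, fell (-0.25 ± 0.04), as did gfzf (-0.10 ± 0.02). MRP, Trxr1 and Gss1 did not pass over both sexes, and Gss2 was under the filter. Within males MRP was higher in DGRP_892 (0.11 ± 0.03, adjusted p = 0.00326), and within females it was not called (-0.03 ± 0.03, adjusted p = 0.386). Between the sexes 4 of the 14 were higher and 5 lower in males (background 35.9% and 29.7%). The lowest were Gclm (-0.42 ± 0.03), Ggt-1 (-0.41 ± 0.04) and Cth (-0.41 ± 0.02). By time, 0 were rhythmic in DGRP_892 (background 0.477%) and 1 in Canton-S B (background 6.01%). The latter was Gclc, with an amplitude of 0.10 ± 0.02 and a peak at 4.94 h (adjusted p = 3.38e-06).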

How the data were processed

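Head RNA was sequenced as poly(A) libraries with ERCC spike-in transcripts, per the labels' protocols. Per the submitters' processing notes the tools were STAR 2.5.3a, featureCounts 1.5.2 and FastQC 0.11.5. Tests started from the raw read counts per gene that the authors deposited (1 empty column was ignored). The authors also deposited a batch-corrected table of 11525 genes, 31 GST genes among them, treated as a score because 3.31% of its values lie below 0, and it served as an alternative only (limma 3.58.1 on log2(value + 20)). Symbols and positions came from Ensembl release 115 on FlyBase release 6. No sequences of these genes were used here. ERCC transcripts (0.387% of counts) entered neither library sizes nor fits.

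The low-count filter was filterByExpr over 48 groups, with a minimum count of 10 and a minimum total of 15; 10894 genes passed, with 99.97% of gene counts. All tests were run in R 4.3.3 with edgeR 4.0.16 (TMM, glmQLFit with robust dispersions, glmQLFTest), fitted to all 144 libraries with Benjamini-Hochberg adjustment over all genes and a threshold of 0.05. Line, sex and line by sex were tested as contrasts of the group means, and rhythms as a 24-h cosine and sine per line and sex, averaged over sexes. Standard errors follow from the estimate and its F statistic. Within library runs, means of the cosine fits replaced group means. Alternatives were RLE and ERCC scaling, DESeq2 1.42.0, no filter, a replicate block, library run as a term, both sets of runs, the authors' values, time as 12 levels and leaving out replicates. Leaving out the named CT02, CT04 and CT22 libraries was chosen after seeing the data.

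Pairing by replicate number comes from the labels, which say that the procedure was repeated 3 times. Deviations of same-numbered libraries had a median correlation of 0.05, against -0.03 for other numbers, and 37.7% of 3384 same-numbered pairs were over 0.1. The sources used here give neither whether counting used strand nor whether flies of the replicates came from separate cultures, so p-values measure the spread between these libraries. The members, gene lists and tests were chosen with earlier results of these data known. Values are given by rule for members with at least 2-fold line differences, the 5 highest per length, the 5 largest sex differences, the 4 largest line by sex differences, rhythmic members, and those not called between lines. The replicate-number genes were chosen after their values were seen. The fits were tested on simulated data. Figures were drawn with matplotlib 3.10.9.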

Additional observations from a re-analysis of the deposited data

Results flagged for a closer look

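For 5 GST genes the test of the difference itself (line by sex) found that the difference between the lines was not the same in both sexes. The values below are the log2 difference of DGRP_892 from Canton-S B in males minus that in females, and 12.7% of all genes tested passed the same test. The value was 0.41 for GstE5, 0.29 for GstE2 and 0.21 for GstE11, and it was -0.27 for GstE12 and -0.24 for GstD9. For each of the 5 the line difference had 1 sign in both sexes and differed in size, and that of GstE12 was not called in males (0.06, adjusted p = 0.267). The sex difference of GstE12 (male minus female) was called with opposite signs, -0.16 ± 0.04 in DGRP_892 (adjusted p = 0.00113) and 0.11 ± 0.04 in Canton-S B (adjusted p = 0.0361). Beside the losses with ERCC scaling and within library runs 1 and 4, which took all 5 calls, the call of GstE5 was lost with library run as a term (log2 0.24, adjusted p = 0.0667), in the authors' batch-corrected values (0.17, adjusted p = 0.519) and without a filter (adjusted p = 0.0505). That of GstE11 was lost without a filter (adjusted p = 0.0539) and without replicate 1 (0.19, adjusted p = 0.139), and that of GstD9 without replicate 1 (-0.23, adjusted p = 0.0717). Within the other library runs the calls of GstE5, GstE11 and GstD9 were lost too (adjusted p = 0.0560 to 0.282). Without replicate 2 all but that of GstE12 were lost, and without replicate 3 all 5.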

How the results depend on the processing

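The number of GST genes that differed between the lines lay between 22 and 27 under every alternative. The share of all genes called ran from 33.5% with ERCC scaling (22 GST genes) to 73.7% with library run as a term (27 GST genes). The number of at least 2-fold differences lay between 4 and 6, with shares of all genes from 2.99% to 9.54%. For single genes in the line comparison, 410 of 427 alternative values kept their direction and call, 10 passed the threshold only in the alternative and 7 lost it, and no called value turned its direction. The sex count fell to 9 within library runs 1 and 4, where the share of all genes called was 36.4%, against 65.6% in all libraries. With ERCC scaling, the median log2 sex difference of all genes was 0.23. Genes whose value turned positive included GstD1 (0.0551), GstD3 (0.20), GstE13 (0.13), GstO1 (0.20), GstO2 (0.0745), GstT1 (0.0766), GstT3 (0.0196) and GstZ1 (0.0721). The line by sex count was 0 with ERCC scaling and within runs 1 and 4 (0.991% and 0.441% of all genes). It was 3 without a filter and within the other runs (7.41% and 8.33%). When 1 replicate was left out it was 0 to 4 (5.42% to 10.7%). The count of rhythmic genes in DGRP_892 was 0 within either set of runs, in the authors' values and without male CT02 replicate 2, and 0 to 1 when 1 replicate was left out. In Canton-S B it was 0 with ERCC scaling, 1 within either set of runs, 6 with time as 12 levels, and 1 to 2 when 1 replicate was left out. The cause of these changes was not tested. The replicate block gave 26 genes for line (67.6% of all genes), 17 for sex (66.1%) and 5 for line by sex (13.4%). For the rhythms in DGRP_892 and Canton-S B it gave 1 and 3 (0.477% and 6.49%). It changed no GST call but that of GstD8. Counts limit the genes under 1 CPM, and fewer libraries enter the fits within runs.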

Other observations

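With time taken as 12 levels in place of a 24-h curve, GstE1, GstE2 and GstO3 joined GstZ2, GstO1 and GstD10 among the genes that changed over time in Canton-S B (adjusted p = 0.0163, 0.0236 and 0.0366, background 6.61%), and GstD5 was again the only GST gene called in DGRP_892 (adjusted p = 0.0309, background 0.624%).

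The level of GstO3, an Omega gene, differed between the library runs of the labels. In DGRP_892 it averaged 49.9 ± 3.96 CPM in run 1 (SD, n = 12 libraries), 57.4 ± 3.80 in run 2 (n = 10), 60.1 ± 12.4 in run 3 (n = 12), 72.6 ± 8.31 in run 4 (n = 10), 55.6 ± 3.79 in run 5 (n = 15) and 90.6 ± 5.36 in run 6 (n = 13). In Canton-S B it averaged 42.6 ± 3.33 CPM in run 1 (n = 12) and 78.6 ± 6.28 CPM in run 6 (n = 11). Library run took 39.3% of its log2 variance within groups, against a median of 22.4% and a 90th percentile of 44.7% over all genes tested, and 41.6% for GstT1. What the runs of library numbers stand for is not stated. The log2 line difference of GstO3 was 0.14 ± 0.03 with library run as a term (adjusted p = 1.07e-04) and 0.15 in the authors' batch-corrected values (adjusted p = 2.60e-05), and its call was lost within each set of runs.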
